A study of Homo sapiens with 8 samples.

Results

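Actin filaments and the myosin motors that pull on them give cells their shape, adhesion and contractile force. The 38 genes described here encode actins, myosin chains, calponin-family proteins, tropomyosins, crosslinkers, filament-turnover proteins, and the transcription factor SRF with regulators that act upstream of it. They were chosen by name, with earlier results of these data known, and are 38 of the 29534 gene names in the expression table. Of them, 8 are usually described as smooth-muscle-type (TAGLN, MYL9, CNN1, ACTA2, TPM1, TPM2, CALD1 and MYLK), and the other 30 are broadly expressed. The name does not mean that they are confined to muscle. Some, TPM1, CALD1 and MYLK among them, also give nonmuscle transcripts, and values per gene do not separate transcripts for any of the 8.

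RNA was sequenced from BEAS-2B cells, an established line of human bronchial epithelium transformed with a virus and grown with fetal bovine serum. One group of 3 libraries came from cells transfected for 12 h with the plasmid pcDNA3.1-JunD, which expresses JunD, a subunit of the AP-1 transcription factor, and the other 3 from cells given the empty vector. The cells of all 6 libraries then received cigarette smoke extract (CSE) for 24 h, at a concentration the labels do not state for these cells, and no library without the extract was compared here. JunD binding was mapped by chromatin immunoprecipitation (ChIP) in cells exposed to 8% CSE for 24 h, with 1 precipitated and 1 input library, for which the labels give no transfection. The labels do not say whether replicates were separate cultures, and the p-values therefore reflect the spread among libraries, which may be technical.

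SRF is known to bind a sequence called the CArG box. With the cofactors MRTFA and MRTFB (MKL1 and MKL2 in the table) it switches on many actin and contractile genes. The cofactors are held by unpolymerised actin monomers and are freed when RhoA, acting through ROCK kinases and formins, drives actin into filaments. Phosphorylation of the regulatory light chain of myosin II then lets the motor contract. Much of this programme is shared by smooth muscle and by epithelial cells that spread on a stiff surface.

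The libraries held 15967955 to 29617655 reads assigned to genes. JUND stood at 70.3, 63.5 and 103 RPKM (assigned reads scaled to exon length and library size) in the JunD libraries, against 13.2, 10.5 and 10.6 with the empty vector. Of 8 bronchial epithelial markers, KRT7, KRT8 and KRT18 were abundant and fell by 0.29, 0.65 and 0.38 on the log2 scale (limma adjusted p = 0.0183, 1.45e-04 and 0.0147), and the defining markers EPCAM, CDH1, KRT5, KRT19 and TP63 stayed below 1 RPKM. The smooth muscle markers MYOCD and DES held 2 and 7 reads over all 6 libraries, and MYH11 and ACTG2 stayed below 1 RPKM on average. PDGFRA and LUM, fibroblast markers, held 1 read each, while PDGFRB fell by 0.94 on the log2 scale. The summed level of the 5 matched fibroblast markers was 2.80 to 3.41 RPKM with JunD and 6.26 to 7.62 RPKM with the empty vector. Most of it was PDGFRB, at 2.70 and 5.65 RPKM on average, and COL1A1 averaged 0.317 and 1.16 RPKM. The sum of the 6 smooth muscle markers was 11.7 to 13.6 and 16.9 to 18.3 RPKM, and most of it was SMTN, at 12.0 and 15.9 RPKM on average. Endothelial markers summed to at most 0.0664 RPKM. The leukocyte marker PTPRC held 3 reads, but CD68, which shares 81.7% of its exon length with another gene, rose by 2.15. The part of these markers in the results was not tested.

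The 38 genes together took 2.564%, 2.502% and 2.556% of assigned reads in JunD replicates 1 to 3, against 4.03%, 3.91% and 3.97% with the empty vector. No JunD library reached the empty-vector range. Means were 2.54% ± 0.0339 and 3.97% ± 0.0623 (SD, n = 3 each), and the two-sided exact permutation p was 0.1, the smallest that 3 against 3 libraries allow. In RNA from whole cultures, fewer cells of a type and less RNA per cell cannot be told apart.

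Genes with a mean of at least 1 RPKM were tested with limma on log2(RPKM + 0.5) with calls made where the p adjusted by Benjamini-Hochberg over all 13379 tested genes was below 0.05. Fold changes are on that scale, which understates changes of low genes. ACTA2, at about 0.5 RPKM, was the only gene of the 38 that did not pass the filter, and CNN1 passed it only through the empty-vector libraries. Of the 37 tested genes, 24 fell, 3 rose (PDLIM5, SRF and MYL12A) and 10 were not called. Over all tested genes, 46.2% were called, as 14.7% fell and 31.5% rose. Rises made up 68.2% of those calls. After median-of-ratios scaling they made up 47.8% of the calls made there, and 23.5% of all tested genes fell. Falls of at least 0.5 on the log2 scale were called in 15 of the 37, against 5.68% of all genes, and falls of at least 1 in 4 (TAGLN, MYL9, CNN1 and ACTG1), against 0.822%. Without CNN1, 23 of 36 fell, 14 of them by at least 0.5 and 3 by at least 1. The median log2 fold change was -0.39 over the 37 genes and 0.10 over all tested genes. Because the set was chosen with earlier results of these data known, its contrast with all tested genes is only a description. No test of the set was made.

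Groups did not overlap for 30 of the 37, with the JunD libraries lower in 27 and higher in 3. Without CNN1, they were lower in 26 of 36. Among all tested genes 57.4% did not overlap, with 18.5% lower and 38.8% higher. Abundant genes leaned downwards in general. Of 446 tested genes with a mean of at least 100 RPKM over the 6 libraries, 32.7% fell, and of the 14 among them that belong to this set, 12 fell. Smooth-muscle-type genes fell in 5 of 7 tested and rose in 0, with a median of -0.85, and without CNN1 they fell in 4 of 6. The other genes fell in 19 of 30 and rose in 3, with a median of -0.33. Of all tested genes, 14.7% fell and 31.5% rose. The plot of fold changes shows that both classes spread widely, since the abundant nonmuscle ACTG1, ACTB and MYH9 fell by about as much as TPM2 or by more, while MYLK and CALD1 were not called.

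**Figure D1:**
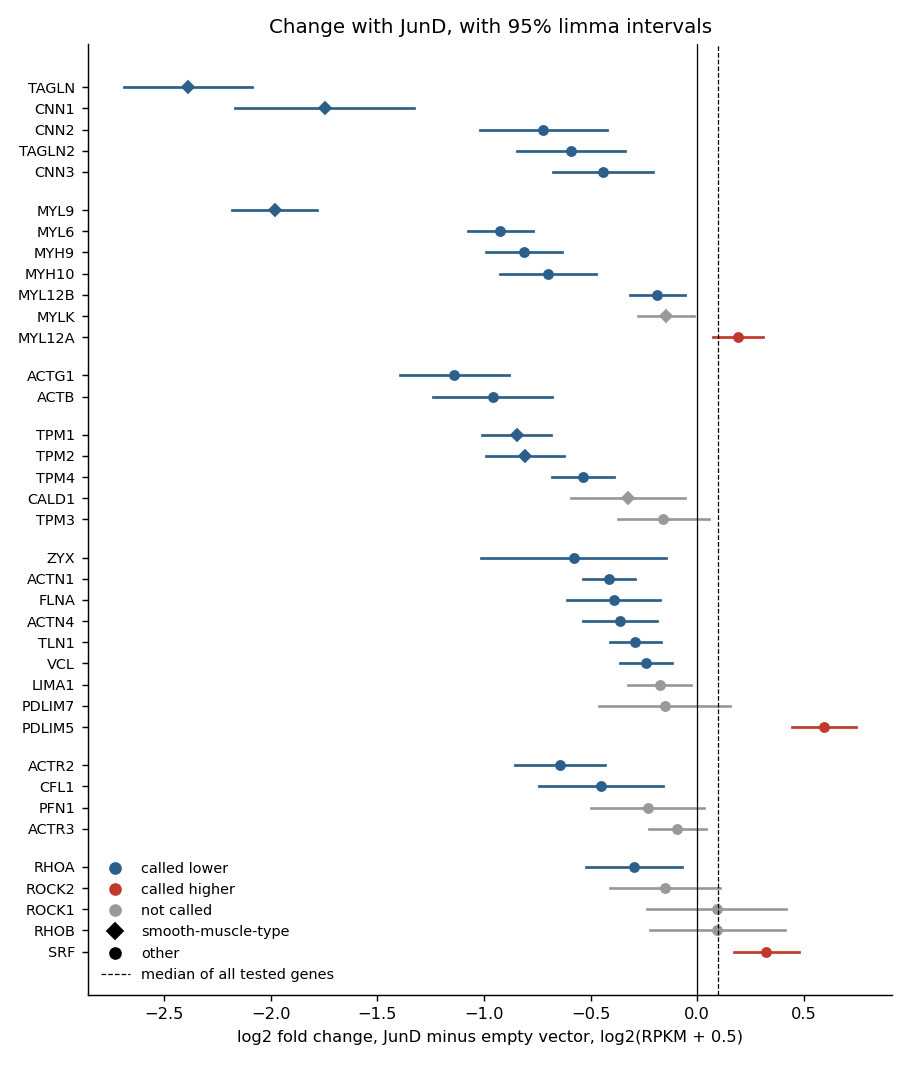
Log2 fold change of each tested gene, JunD minus empty vector, with its 95% limma interval, grouped by role. TAGLN, MYL9 and CNN1 lie furthest to the left, at -2.39, -1.98 and -1.75, and PDLIM5, SRF and MYL12A are the 3 called higher.

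SRF sites were looked for on both strands of RefSeq promoter windows, 300 bases that lie mostly upstream of a gene's start (GRCh38.p14), which matched 35 of the 38 genes. TAGLN, MYL9 and ACTB had no entry. The strict CArG box was found in 7 of the 35 windows, those of ACTG1, CNN2, FLNA, TPM4, SRF, MYLK and ROCK2. Of all 27305 promoter windows, 351 (1.29%) held one. The sites of the 4 genes among these that fell, and of SRF itself, which rose, show the sequence through which SRF is known to bind. Capitals mark the CArG box, and each run is written 5′ to 3′ along the gene's strand and lies upstream of the RefSeq start.
ACTG1 (chr17:81512859-81512918, minus strand): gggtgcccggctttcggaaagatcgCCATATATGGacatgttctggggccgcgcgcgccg
CNN2 (chr19:1026494-1026553, plus strand): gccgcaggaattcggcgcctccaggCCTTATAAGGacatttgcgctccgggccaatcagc
FLNA (chrX:154374694-154374753, minus strand): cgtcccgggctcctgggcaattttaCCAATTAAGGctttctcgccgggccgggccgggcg
TPM4 (chr19:16067340-16067399, plus strand): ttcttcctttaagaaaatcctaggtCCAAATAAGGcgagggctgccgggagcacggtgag
SRF (chr6:43171214-43171268, plus strand): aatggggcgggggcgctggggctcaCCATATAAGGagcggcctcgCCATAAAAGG

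SRF holds 2 boxes, which begin 30 and 10 bases before its start. The boxes of ACTG1 and FLNA begin 94 bases before the start, that of CNN2 89 and that of TPM4 173. Log2 fold changes of the 7 genes with a box ran from -1.14 to 0.32 with a median of -0.39, and those of the 27 tested genes without one ran from -1.75 to 0.59 with a median of -0.33. Of genes with a box 4 of 7 fell, and of those without, 17 of 27, beside 14.7% of all tested genes. The 17 include CNN1, which gave the value of -1.75 and passed the filter only through the empty-vector libraries. TAGLN, MYL9 and ACTB are in neither count. The RefSeq start lies 263783 bases from the table's outermost start for MYLK and 11048 bases for ACTG1. Among genes without a box this distance was largest for CALD1, TPM3 and TPM1, at 35382, 11430 and 5857 bases, so their outermost starts were not searched. The motif TGAGTCA, the AP-1 site, searched on both strands, lay in 1 of the 35 windows, that of TAGLN2, 23 bases after the start, against 4.92% of all windows. The related TGACGTCA lay in 1, that of MYL6, against 1.98%. A match is a description of letters and not a measured site.

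Actins are the building blocks of the filaments, and the nonmuscle ACTB and ACTG1 made up nearly all actin RNA. ACTB, at chromosome 7, 5527151 to 5563784 (GRCh38, minus strand), stood at 1421, 1366 and 1231 RPKM with the empty vector and at 621, 644 and 812 with JunD. Every JunD library lay below every empty-vector library, although JunD replicate 3 lay nearest to them. ACTB fell by 0.96 on the log2 scale (95% interval -1.24 to -0.68, limma adjusted p = 9.67e-04), and by mean level it ranked 23 among all genes with the empty vector and 43 with JunD.

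ACTG1 (chromosome 17, 81509971 to 81523847, minus strand) showed the same order, at 989, 948 and 865 RPKM with the empty vector and 388, 397 and 492 with JunD. Its log2 fold change was -1.14 (95% interval -1.40 to -0.88, limma adjusted p = 3.39e-04), the largest fall among the broadly expressed genes of the set. The smooth muscle actin ACTA2 was hardly transcribed. It held 69 reads over the JunD and 102 over the empty-vector libraries, with 0.366, 0.484 and 0.531 RPKM against 0.625, 0.442 and 0.564, so the groups overlapped. Without the expression filter its log2 fold change was -0.12 (limma adjusted p = 0.517).

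Summed over the 3 actins, the level was 1118 ± 162 RPKM with JunD and 2274 ± 161 RPKM with the empty vector (SD, n = 3 each; exact permutation p = 0.1). Near-identical copies of ACTB and ACTG1 lie elsewhere in the genome, and no source used here says how reads matching several places were counted. The 17 ACTB and ACTG1 pseudogenes listed in the table summed to 1.30 to 1.94 RPKM in each library, so few reads were assigned to them. How reads divided between ACTB and ACTG1 themselves remains uncertain.

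**Figure D2:**
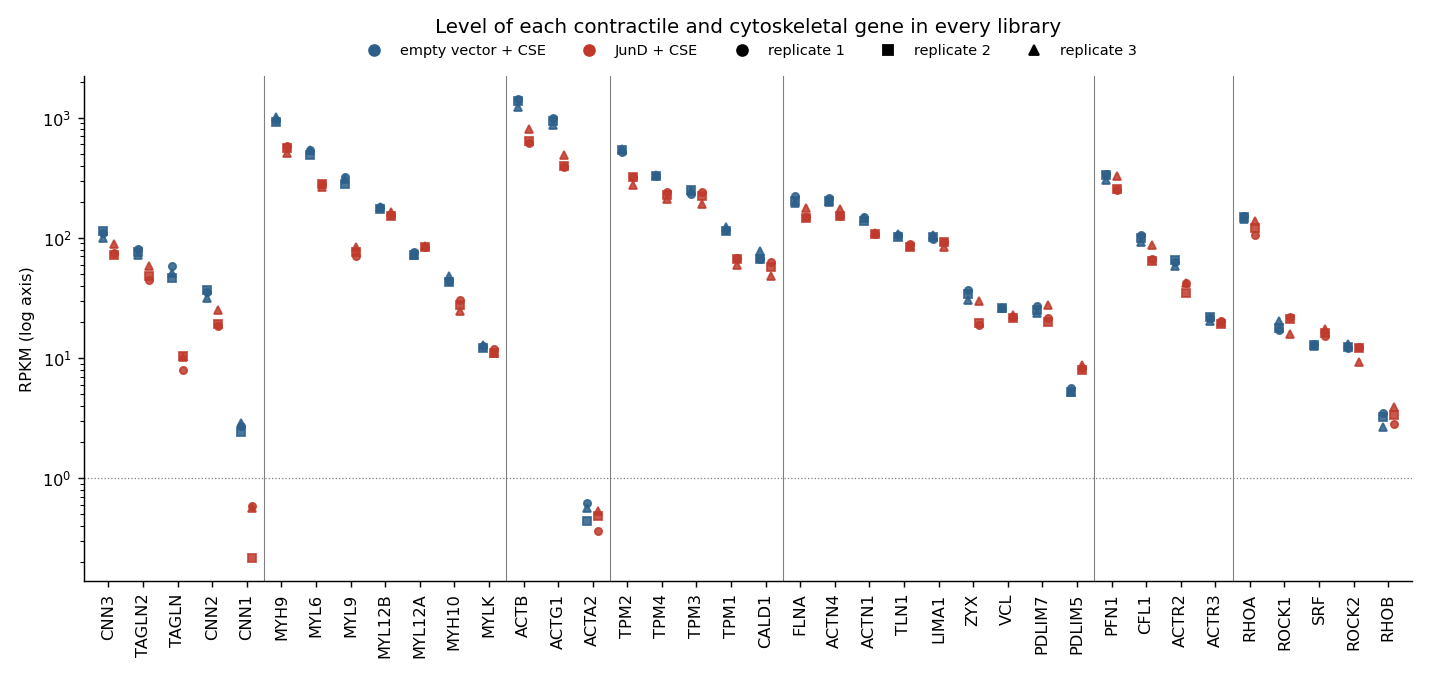
RPKM of all 38 genes in every library on a log axis, in blocks by role, with blue for the empty vector, red for JunD and a symbol per replicate; the dotted line marks the filter of 1 RPKM. The genes span from below 1 RPKM (ACTA2, and CNN1 with JunD) to above 1000 RPKM (ACTB with the empty vector), and the red points lie below the blue for most genes.

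Transgelins and calponins are related proteins that bind and bundle actin filaments. Every one of the 5 fell, beside 14.7% of all tested genes, but CNN1 passed the filter only through the empty-vector libraries. TAGLN, or SM22-alpha, is a classical SRF target (chromosome 11, 117199321 to 117204782, plus strand). It went from 58.4, 46.6 and 51.5 RPKM with the empty vector to 8.00, 10.5 and 10.3 with JunD. The lowest empty-vector library was still well above the highest JunD library. The log2 fold change was -2.39 (95% interval -2.69 to -2.09, limma adjusted p = 3.15e-05), and the rank by mean level went from 956 to 5008.

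Its broadly expressed relative TAGLN2 changed much less. TAGLN2 stood at 80.2, 76.6 and 71.6 RPKM with the empty vector and 44.7, 48.4 and 58.7 with JunD, a log2 fold change of -0.59 (95% interval -0.85 to -0.34, limma adjusted p = 0.00464). TAGLN thus gave 42.1%, 37.8% and 41.8% of summed transgelin RPKM with the empty vector and 15.2%, 17.8% and 14.9% with JunD.

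CNN1, the calponin of differentiated smooth muscle, was low throughout. It held 493 reads over the empty-vector and 67 over the JunD libraries, at 2.72, 2.41 and 2.87 RPKM against 0.586, 0.217 and 0.567. Groups were far apart, with a log2 fold change of -1.75 (95% interval -2.17 to -1.33, limma adjusted p = 4.44e-04). CNN2, a broadly expressed calponin, went from 35.6, 36.6 and 31.7 RPKM to 18.4, 19.4 and 25.2 and fell by 0.72 on the log2 scale (limma adjusted p = 0.00401). CNN3, the most abundant of the 3, went from 109, 113 and 98.9 RPKM to 74.8, 72.0 and 89.8 and fell by 0.44 (limma adjusted p = 0.0109), and neither gene's groups overlapped. CNN1 supplied 1.86% ± 0.285 of calponin RPKM with the empty vector and 0.451% ± 0.197 with JunD (SD, n = 3 each).

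Nonmuscle myosin II is built from heavy chains, essential light chains and regulatory light chains, and the last are the targets of myosin light chain kinase. Of the 7 myosin genes, 5 fell and 1 rose, beside 14.7% and 31.5% of all tested genes. Among tested genes with a mean of at least 100 RPKM, 32.7% fell. The regulatory light chains divided. MYL9 (chromosome 20, 36541484 to 36551447, plus strand) went from 324, 283 and 312 RPKM with the empty vector to 71.0, 76.6 and 83.9 with JunD. Its log2 fold change of -1.98 had a 95% interval of -2.18 to -1.78 (limma adjusted p = 1.18e-05).

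The neighbouring MYL12A and MYL12B, on chromosome 18, encode nearly the same regulatory chain for nonmuscle cells. MYL12A was slightly higher with JunD, at 83.4, 84.2 and 84.9 RPKM against 76.7, 72.3 and 72.2. MYL12B was slightly lower, at 154, 153 and 164 RPKM against 181, 174 and 181. Log2 fold changes were 0.19 (limma adjusted p = 0.0200) and -0.19 (limma adjusted p = 0.0278). With 1 library left out at a time, 3 of 6 fits did not call MYL12A and 5 did not call MYL12B, and MYL12A was not called after median-of-ratios scaling (0.06). Since the copies are close, reads could be split between them by the counting.

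MYL9 therefore went from the leading regulatory light chain to the least abundant of the 3. Its share of their summed RPKM was 55.7%, 53.5% and 55.2% with the empty vector and 23.0%, 24.4% and 25.2% with JunD. The share of MYL12B went from 32.0% ± 0.851 to 49.3% ± 0.560, and that of MYL12A from 13.2% ± 0.441 to 26.5% ± 0.831 (SD, n = 3 each). The family's sum went from 559 ± 26.8 to 318 ± 12.9 RPKM. Each of these differences left the groups without overlap (exact permutation p = 0.1).

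**Figure D3:**
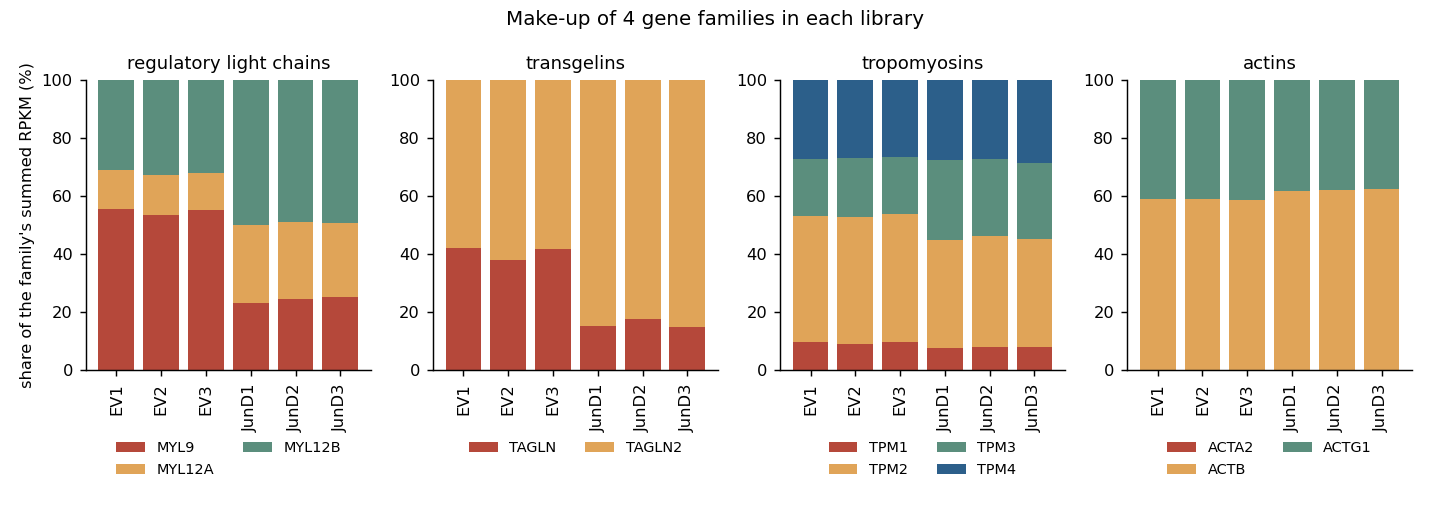
Share of each gene in the summed RPKM of its family, in percent, for each empty-vector (EV) and JunD library. MYL9 drops from 54.8% to 24.2% of regulatory light chains and TAGLN from 40.6% to 15.9% of transgelins on average, while tropomyosin and actin shares shift by at most 6.89 percentage points.

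MYL6, the essential light chain, went from 542, 493 and 538 RPKM to 283, 281 and 264, a log2 fold change of -0.92 (limma adjusted p = 1.01e-04). The heavy chain MYH9, one of the most abundant transcripts of the cells, went from 954, 923 and 1016 RPKM to 585, 556 and 509 and fell by 0.81 (95% interval -0.99 to -0.63, limma adjusted p = 3.09e-04). MYH10, the second nonmuscle heavy chain, went from 43.5, 43.0 and 48.6 RPKM to 30.7, 27.7 and 24.4 and fell by 0.70 (limma adjusted p = 0.00149). Both heavy chains fell nearly in step, with MYH9 at 95.5% of their sum with the empty vector and 95.2% with JunD. MYLK, the kinase that phosphorylates the regulatory light chain, had a log2 fold change of -0.15 (95% interval -0.28 to -0.02) and was not called (limma adjusted p = 0.0650), although its groups did not overlap. MYLK was called after median-of-ratios scaling and quantile normalization.

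Tropomyosins wind along actin filaments and set which proteins may bind there, and caldesmon holds myosin back on the thin filament. TPM1, TPM2 and TPM4 fell, while TPM3 and CALD1 were not called. TPM2, the most abundant, went from 519, 535 and 547 RPKM with the empty vector to 322, 318 and 275 with JunD, a log2 fold change of -0.81 (limma adjusted p = 3.44e-04). TPM1 went from 116, 113 and 123 RPKM to 68.5, 66.4 and 59.9, with -0.85 (limma adjusted p = 1.86e-04), and TPM4 from 325, 329 and 331 RPKM to 239.6, 227 and 213, with -0.54 (limma adjusted p = 7.17e-04).

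None of these 3 had overlapping groups. TPM3 did overlap, at 234, 249 and 248 RPKM against 241, 223 and 193, with -0.16 (95% interval -0.37 to 0.05, limma adjusted p = 0.186), and was called lower after quantile normalization (-0.24, limma adjusted p = 0.0466). CALD1, at 70.4 ± 6.06 RPKM against 56.2 ± 7.58 (SD, n = 3 each), had -0.33 and just missed the threshold (limma adjusted p = 0.0512), which it passed after median-of-ratios scaling, with a filter of 5 RPKM and without JunD replicate 1. Within the family, TPM2 went from 43.6% ± 0.178 to 37.4% ± 0.631 of summed tropomyosin RPKM and TPM3 from 19.9% ± 0.366 to 26.8% ± 0.814. TPM4 kept a share of 26.9% ± 0.379 and 27.8% ± 0.793, which overlapped between groups (exact permutation p = 0.2).

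The ratio of a smooth-muscle-type gene to a broadly expressed relative was compared for 11 pairs, as log2 of (RPKM + 0.5) within each library. In all 11 the groups did not overlap, which gave each an exact permutation p of 0.1, the smallest possible. Adjustment over the pairs leaves 0.1, as it must when all are equal. MYL9, CNN1, ACTA2, TPM1 and TPM2 recur among the pairs, which are therefore not independent. Ratios of other gene pairs were not computed, so this count has no share over all pairs beside it. Of single tested genes, 57.4% did not overlap. With 9 of the pairs the ratio was lower with JunD. MYL9 against MYL12A changed most, from 2.05 ± 0.07 to -0.13 ± 0.11 (SD, n = 3), a difference of -2.17, and differences between single JunD and empty-vector libraries ran from -2.33 to -1.98. TAGLN against TAGLN2 and MYL9 against MYL12B each differed by -1.80, CNN1 against CNN3 by -1.31 and CNN1 against CNN2 by -1.03. CNN1 with JunD lay near the pseudocount, and at pseudocounts of 0.1 and 1 RPKM the CNN1 differences were -1.95 and -0.90 against CNN3 and -1.66 and -0.63 against CNN2.

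Tropomyosin pairs differed less. TPM1 against TPM3 differed by -0.69 and TPM2 against TPM3 by -0.65, but against TPM4 the differences were -0.31 and -0.27. The actin pairs went the other way, with 0.84 for ACTA2 against ACTB and 1.02 for ACTA2 against ACTG1. ACTA2 lay near the pseudocount of 0.5 RPKM in every library, so these ratios mostly trace ACTB and ACTG1. Without a pseudocount, ACTA2 gave 0.0411% ± 0.00515 of actin RPKM with JunD and 0.0240% ± 0.00425 with the empty vector.

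**Figure D4:**
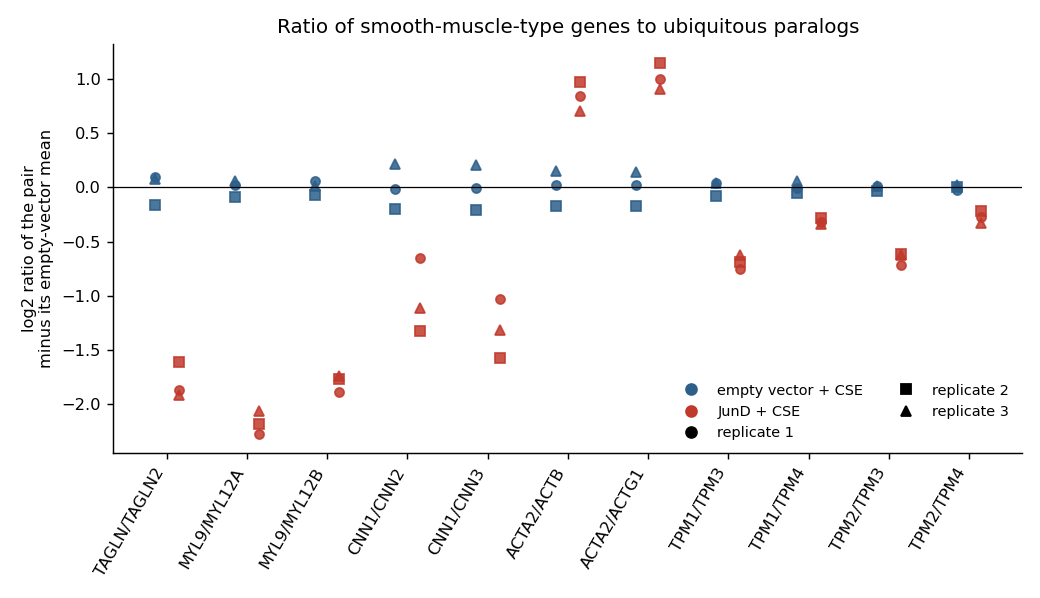
Log2 ratio of each smooth-muscle-type gene to a broadly expressed relative in every library, less the empty-vector mean of that pair; blue marks the empty vector and red JunD. Red points lie below blue for 9 pairs, by 2.17 for MYL9/MYL12A, and above for the 2 ACTA2 pairs.

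Crosslinkers and focal adhesion proteins tie filaments to each other and to integrins. Of 9 such genes, 6 fell and 1 rose, beside 14.7% and 31.5% of all tested genes. The alpha-actinins ACTN1 and ACTN4, which bundle filaments, fell by 0.41 and 0.36 on the log2 scale (limma adjusted p = 0.00103 and 0.00754), the filamin FLNA by 0.39 (adjusted p = 0.0132), talin TLN1 by 0.29 (adjusted p = 0.00409) and vinculin VCL by 0.24 (adjusted p = 0.00858). VCL stood at 26.2 RPKM in each empty-vector library and at 21.8, 21.4 and 23.0 with JunD. The FLNA call was lost without empty-vector replicate 1.

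ZYX, which gathers on filaments under tension, stood at 36.6, 33.9 and 30.2 RPKM with the empty vector and 18.8, 19.4 and 30.1 with JunD. JunD replicate 3 all but reached empty-vector replicate 3, and the log2 fold change was -0.58 (limma adjusted p = 0.0383). Of 6 fits with 1 library left out, only that without JunD replicate 3 kept the call (-0.79, limma adjusted p = 8.12e-04). PDLIM5, a PDZ and LIM domain protein of the Z-disc and stress fibres, was the exception in this class. It rose from 5.60, 5.25 and 5.17 RPKM to 8.23, 7.95 and 8.77, a log2 fold change of 0.59 (95% interval 0.44 to 0.74, limma adjusted p = 5.60e-04). Its relative PDLIM7 had -0.15 with overlapping groups (limma adjusted p = 0.365), and LIMA1, which stabilises filaments, had -0.18 (limma adjusted p = 0.0566). PDLIM7 was called lower without JunD replicate 3 (-0.29, limma adjusted p = 0.0192) and LIMA1 after median-of-ratios scaling (-0.31, limma adjusted p = 0.0274).

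Among 4 genes of filament turnover and nucleation, 2 fell, beside 14.7% of all tested genes. ACTR2, which encodes the Arp2 subunit of the complex that starts branched filaments, went from 62.9, 65.6 and 58.0 RPKM to 42.0, 35.1 and 42.1, a log2 fold change of -0.64 (limma adjusted p = 0.00165). Its partner ACTR3, for Arp3, had -0.09 (95% interval -0.23 to 0.04, limma adjusted p = 0.211), with overlapping groups. The filament-severing cofilin CFL1 had -0.45 (limma adjusted p = 0.0222), and was not called in 4 of 6 fits with 1 library left out. Profilin PFN1, which feeds monomers to growing filaments, had -0.23 with overlapping groups (limma adjusted p = 0.131). PFN1 was called lower after median-of-ratios scaling (-0.36, limma adjusted p = 0.0153) and without JunD replicate 3 (-0.35, limma adjusted p = 0.00570), and ACTR3 after median-of-ratios scaling (-0.22) and quantile normalization (-0.19).

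Upstream, SRF itself rose, against the direction of most genes of the set, as did 31.5% of all tested genes. SRF (chromosome 6, 43171299 to 43181507, plus strand) went from 13.1, 12.9 and 12.6 RPKM to 15.3, 16.0 and 17.5, a log2 fold change of 0.32 (95% interval 0.17 to 0.48, limma adjusted p = 0.00674). The change was smaller after median-of-ratios scaling (0.20) and quantile normalization (0.21), where SRF was still called. RHOB was low and overlapped between groups, at 3.47, 3.20 and 2.69 RPKM against 2.80, 3.38 and 3.95 (log2 fold change 0.09, limma adjusted p = 0.594), and its sign turned after median-of-ratios scaling, quantile normalization and without JunD replicate 3.

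RHOA had -0.30 (limma adjusted p = 0.0400), with the JunD libraries below the empty-vector ones. With 1 library left out, 5 of 6 fits no longer called RHOA. ROCK1 and ROCK2, kinases that promote myosin light chain phosphorylation, were not called, at 0.09 and -0.15 (limma adjusted p = 0.618 and 0.291), and the sign of ROCK1 turned after median-of-ratios scaling and quantile normalization. Without JunD replicate 3 ROCK1 was called higher (0.24, limma adjusted p = 0.0450). In JunD replicate 3 ROCK1 and ROCK2 stood at 15.7 and 9.35 RPKM, below all other libraries.

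Genes outside the set were described from 4 further lists, to be read against the 14.7% of all tested genes that fell and the 31.5% that rose. In the list of SRF cofactors and smooth-muscle-type targets, 5 of 13 tested genes fell and 2 rose, with a median log2 fold change of 0.06. MKL1 had 0.10 (limma adjusted p = 0.351) with overlapping groups, while MKL2 fell by 0.29 (adjusted p = 0.0191), from 3.08 ± 0.150 to 2.44 ± 0.162 RPKM (SD, n = 3 each). MYOCD, the cofactor of muscle cells, held 2 reads in all. The filamin FLNC fell most in this list, from 43.2, 43.3 and 40.9 RPKM to 17.8, 17.6 and 19.4, a log2 fold change of -1.19 (limma adjusted p = 2.65e-05). SMTN, CSRP1 and SYNPO, proteins of the actin cytoskeleton, fell by 0.40, 0.47 and 0.55, whereas the integrin chain ITGA5 rose by 0.77 and FILIP1L by 0.70. SYNPO passed the filter only through the empty-vector libraries (0.803 against 1.40 RPKM on average), and without it 4 of 12 genes fell.

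LMOD1, a muscle filament nucleator, did not pass the filter. It ranged from 0.816 to 1.21 RPKM with the empty vector and from 0.0284 to 0.183 with JunD, without overlap. Of the other genes of this list below the filter, ACTG2 was also lower without overlap, and MYH11 and MYOCD overlapped. SYNPO2 and DES were higher with JunD without overlap. SYNPO2 stood at 0.241, 0.268 and 0.157 RPKM with JunD against 0.0281, 0.0409 and 0.0279, and DES held 7 reads over all libraries.

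In the Arp2/3 list 3 of 15 tested genes rose and 1 fell, both smaller shares than over all tested genes. The activators WASL, WASF1 and WASF2 rose by 0.35, 0.34 and 0.23, and CYFIP1, of the WAVE complex, fell by 0.54 (limma adjusted p = 7.71e-04). Of 22 actin turnover genes, 9 fell and 2 rose. The capping protein CAPZB fell by 0.61 (limma adjusted p = 5.94e-04), WDR1 by 0.46, the severing protein DSTN by 0.51 and CFL2 by 0.45, while LIMK2, a kinase that switches cofilin off, and CAPG rose by 0.33 and 0.36. The more abundant LIMK1, a related kinase named here after its values were seen, fell by 0.51 (limma adjusted p = 0.00558), from 10.6 ± 0.615 to 7.35 ± 0.936 RPKM (SD, n = 3 each). In the focal adhesion list 11 of 19 fell and 1 rose, or 10 of 17 and 1 among genes with at least 1 RPKM on average in each group, which TNS1 and FERMT1 did not reach. LASP1 fell by 0.56 (limma adjusted p = 2.17e-04), ILK by 0.54, LPP by 0.50 and TNS3 by 0.40, and TES rose by 0.51 (limma adjusted p = 5.50e-04). ILK shares 68.1% of its exon length with TAF10, so its reads cannot be told apart from those of that gene without a stated strand setting.

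**Figure D5:**
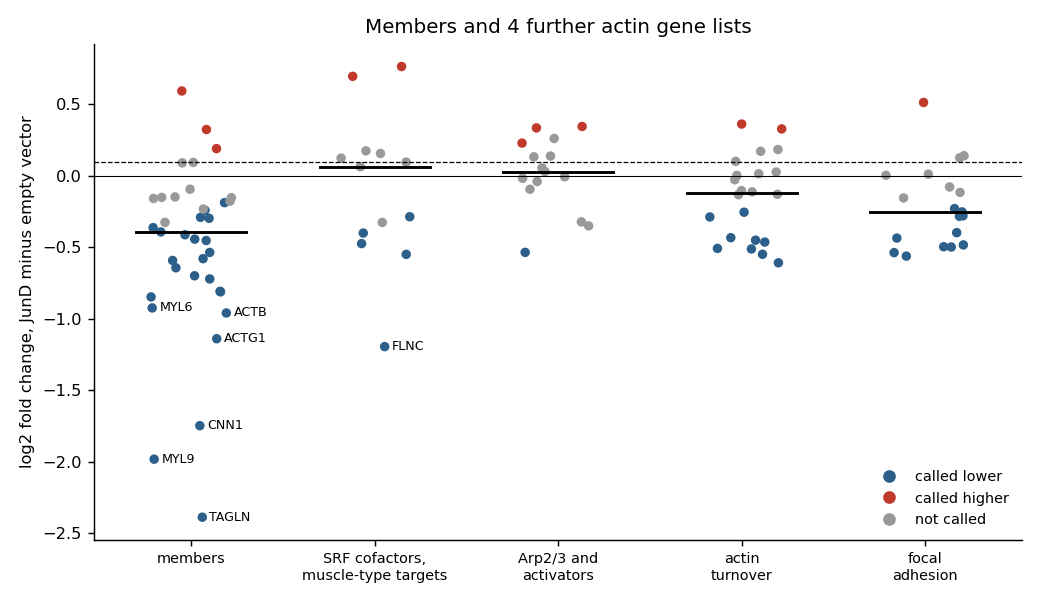
Log2 fold change of each tested gene of the set and of 4 further lists, with a bar at each list's median and a dashed line at the median of all tested genes, 0.10; blue marks genes called lower and red genes called higher. FLNC stands lowest of the 4 lists at -1.19, and the set itself has the lowest median, -0.39. The set and the lists were chosen with earlier results of these data known.

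The authors' list of JunD peaks, 61360 in all, gives a fold enrichment over input and a q-value for each peak, and these are the authors' values. Within 1 kb of the outermost start, 2 of the 38 genes (5.26%) had a peak, ACTG1 and MYH10, against 7.23% of all 29417 genes placed. None of the peaks that close had q below 0.05, and only 0.418% of all genes had such a peak. The MYH10 peak (chromosome 17, 8630275 to 8630671) lay 90 bases from the start at a fold enrichment of 2.69 and a q of 0.348. The ACTG1 peak (chromosome 17, 81522753 to 81523003, fold enrichment 3.70, q = 0.142) lay 844 bases from the outermost start, which is 11048 bases upstream of the RefSeq start used for the promoter window above. No peak lay in TAGLN, MYL9, CNN1, MYL6, TPM1 or TPM2 or within 5 kb of their starts.

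Within gene bodies, 44 peaks fell in 20 of the 38 genes (52.6%), against 39.1% of all genes. MYH10 and MYLK, with 6 each, and CALD1, with 5, held the most peaks. The shares were not adjusted for gene length. Fold enrichment in them ran from 2.37 to 4.78 with a median of 3.10, beside 3.12 for the whole list. Of these 44 peaks, 2 had q below 0.05, beside 2.60% of the whole list. One lay in an exon of CALD1 (chromosome 7, 134959980 to 134960368, fold enrichment 4.78, q = 0.0225) and the other in an intron of ACTN1 (chromosome 14, 68939918 to 68940258, fold enrichment 4.23, q = 0.0315). Near SRF the closest peak lay 1819 bases before the start (chromosome 6, 43169215 to 43169480, fold enrichment 2.74, q = 0.354). With 1 ChIP library of each kind there is no replicate.

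The called genes outside the set whose log2 levels most resembled those of TAGLN over the 6 libraries were RP11-216L13.18, GFRA1, EEF1A2, GTF2IP4 and LDOC1, with Pearson's r of 0.998 or above. These 6 points fall into the 2 groups, so r mostly reflects a difference between groups and is given as a description. GFRA1, a receptor for the growth factor GDNF, had a log2 fold change of -1.12, and EEF1A2, a translation elongation factor, had -1.12.

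Within the set, JunD replicate 3 was compared with JunD replicates 1 and 2, and replicates 1 and 2 were not set apart in the same way. JUND stood at 103 RPKM in replicate 3, against 70.3 and 63.5 in replicates 1 and 2. On the log2 scale, the difference of replicate 3 from the mean of replicates 1 and 2 varied with exon length. Its median was 0.28 in the 19 tested genes with less than 5000 bases of exon and -0.09 in the 18 longer ones. Across these 37 genes, which are not independent replicates, the Pearson correlation of that difference with log2 exon length was -0.61. Over all 13379 tested genes it was -0.11, with medians of 0.12 and 0.04. Empty-vector replicate 3 differed from its group in the opposite sense, with a correlation of 0.50 in the set and 0.11 over all genes. The part of exon length in the results was not tested. Falls were called in 14 of the 19 shorter and 10 of the 18 longer genes, and in 14.0% and 15.7% of all shorter and longer genes. The 14 include CNN1, which passed the filter only through the empty-vector libraries.

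Without JunD replicate 3, 26 of the 37 genes fell and 4 rose, while 19.8% of all tested genes fell. Of the 27 calls in the set, 21 were kept whichever library was left out (19 lower and 2 higher, PDLIM5 and SRF). The 19 include CNN1, which passed the filter only through the empty-vector libraries. Calls lost at least once were those of MYL12A, MYL12B, FLNA, ZYX, CFL1 and RHOA. No called gene changed sign under any alternative. Scaling mattered for counts, since over all tested genes the median change was 0.10 on the log2 scale in RPKM and -0.02 after median-of-ratios scaling. Under the latter, 29 genes of the set and 23.5% of all tested genes fell.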

How the data were processed

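RNA libraries were 3 with JunD and 3 with the empty vector. The authors deposited expression as RPKM per gene, with exon coordinates and summed exon length. Tools named per the submitters' processing notes, without stated roles, include MACS2 2.1.1, bedtools 2.25.0, STAR 2.5.3a, Trimmomatic 0.36 and featureCounts (Subread 1.5.1), with the build GRCh38. For annotation release, strand setting and multiply mapped reads, no source used here states the choice. Each library's deposited RPKM, times exon length, came to whole reads within 0.01 read for 100% of genes, and these reads served for depth, read totals of low genes and the members' share of reads, not for the fit. The authors' deposited peak list gives per peak the pileup (a coverage signal), a fold enrichment (a ratio) and both a p-value and a q-value. Peak starts and ends are 1-based.

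Genes averaging at least 1 RPKM were fitted with limma 3.58.1 (R 4.3.3, intensity trend) on log2(RPKM + 0.5), two-sided, with Benjamini-Hochberg adjustment over all tested genes. The script was tested on simulated data. Alternatives were pseudocounts of 0.1 and 1, no filter and a filter of 5 RPKM, TPM, median-of-ratios and quantile scaling, a replicate block and leaving out each library. Genes were named by rule: members called with a change of at least 0.5, their paired relatives, SRF, RHOB, the SRF cofactors and up to 4 called genes per list and direction. LMOD1, SYNPO2, the other members and the cell markers were named to complete the account. The members and gene lists were chosen with earlier results of these data known. Gene symbols were used as the table gives them, and ABRA, DCN and CD3E of the lists had no match. One further gene list is not reported here.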

Additional observations from a re-analysis of the deposited data

How the results depend on the processing

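The counts of members that fell ranged from 17 to 29 and of those that rose from 2 to 4 over the 14 alternatives. The share of all tested genes that fell ranged from 6.50% to 24.3% over them. Leaving out 1 library gave 19 to 26 lower and 2 to 4 higher, while 9.96% to 19.8% of all tested genes fell. Of all calls, 68.2% were higher in RPKM, 76.9% in TPM, 47.8% with median-of-ratios scaling and 45.0% with quantile scaling. Members lower numbered 24, 21, 29 and 27 in turn, while 14.7%, 11.4%, 23.5% and 24.3% of all tested genes fell. Same-numbered libraries did not deviate together (correlations of -0.38 to -0.08, and 0 of 6 libraries correlated best with their own number). These are deviations from means of only 3 libraries, so they cannot show whether the numbers pair cultures, which the labels do not state. With the replicate block 17 members fell and 2 rose, while 8.88% of all tested genes fell. Of 27 calls, 19 held under every alternative that tested the gene, and no called member reversed. The 19 include CNN1, which passed the filter only through the empty-vector libraries. ROCK1 turned to -0.0353 with median-of-ratios and -0.0185 with quantile scaling, and RHOB to -0.0186 and -0.0824 there and to -0.0104 without JunD replicate 3, in a range of -0.0104 to 0.204 with a library left out. The share of ACTN1 among alpha-actinins turned to 0.126 percentage points higher, and that of ACTN4 to -0.126, without JunD replicate 3, over ranges of -1.35 to 0.126 and -0.126 to 1.35 with a library left out. Arp2/3 genes higher numbered 5 in TPM, and lower 4 with median-of-ratios scaling, 3 with quantile scaling and 1 to 3 with a library left out (3 without JunD replicate 3). Actin turnover genes higher numbered 4 in TPM, 1 with quantile scaling and 1 to 2 with a library left out (1 without empty-vector replicate 2 or 3). The cause of these moves was not tested. Members with a peak near the start numbered 7 within 5 kb (22.2% of all genes) and 0 within 1 kb with q below 0.05 (0.418% of all genes). The 2 planned count models on recovered reads were not run, since the deposited unit is RPKM. Depth limits CNN1 with JunD (67 reads) and ACTA2.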
